A study of Mus musculus with 18 samples.

Results

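The comparison described here sets T23 cells co-cultured with wild-type fibroblasts against T23 cells grown alone, with 3 RNA-seq libraries on each side, chosen by their labels as 6 of the 18 libraries of the series. T23 is a mouse adenocarcinoma line, used here in a series on prostate cancer. Neither group received a drug, and the fibroblasts, whose titles carry the code FIBROB6, were wild type for Sparc, a secreted collagen-binding glycoprotein. The other 12 libraries, 3 a group, entered the same model. They hold T23 cells beside Sparc-deficient fibroblasts, T23 cells given enzalutamide (an androgen receptor antagonist), and co-cultures given this drug either by itself or together with the chalcone isoliquiritigenin. The labels do not say how the co-culture was set up, how tumour cells were parted from fibroblasts before RNA was taken, or whether replicates are separate cultures, so p-values measure the spread between these libraries, which may be technical. The comparison asks how tumour cell expression differs when wild-type fibroblasts are present.

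Fibroblasts of the tumour stroma deposit matrix and release growth factors, and neighbouring tumour cells can answer through TGF-beta, Wnt, BMP, retinoid and cytokine pathways. Immediate early genes such as Egr1 and Fos are transcribed within minutes of a growth factor or stress signal without new protein synthesis. The matricellular genes Ccn1 and Ccn2 respond to TGF-beta and to the Hippo effectors YAP and TAZ. Retinoic acid is made from retinal, acts through receptors such as the product of Rarb, and is degraded by CYP26 enzymes.

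The 6 libraries held between 18809264 and 24863611 counts each, with 19136 to 19766 genes detected and 0.824 to 1.34% of counts on mitochondrial genes. Levels are given as CPM, the usual read count scaled to a common library total after TMM normalisation. Where no read was counted, as many as 3 could have been missed, a level between 0.121 and 0.159 CPM depending on the library (counting error only). In 13600 genes with enough counts, the median absolute log2 difference between pairs of libraries at 10 CPM or more was 0.0545 to 0.0585 within T23 alone, 0.0623 to 0.0939 within co-culture and 0.0707 to 0.0965 between the groups, so the between-group distances overlapped those among co-culture replicates. The first principal component (39.7% of the variance) put all 3 co-culture libraries on one side (5.27, 7.49 and 1.28) and all 3 alone libraries on the other (-5.89, -2.62 and -5.54). Co-culture replicate 3 lay nearest to the alone group on it and stood apart from the other 5 on the second component (25.4%, at -8.94).

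Few genes were called between co-culture and T23 alone, and most of these differed by little. Of the 13600 genes, 70 were called at an adjusted p under 0.05 (0.515%; edgeR quasi-likelihood test, Benjamini-Hochberg over all genes), 35 higher (0.257%) and 35 lower (0.257%). Sizes of the called changes ran from 0.21 to 1.92 on the log2 scale with a median of 0.40, a 1.32-fold change. Ranbp3l, Nefl and Rarb were the 3 called genes at 2-fold or more (0.0221% of all tested), and 15 called genes reached 1.5-fold, 8 higher and 7 lower. Over all tested genes the median absolute log2 fold change was 0.0801, beside a median standard error of 0.087 and a median within-group SD of log2 CPM of 0.0711 alone and 0.0914 in co-culture. None of the 9044 genes at 10 CPM or more differed by 2-fold in its fitted fold change, called or not. The plot of fold change against level shows this narrowing.

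**Figure D1:**
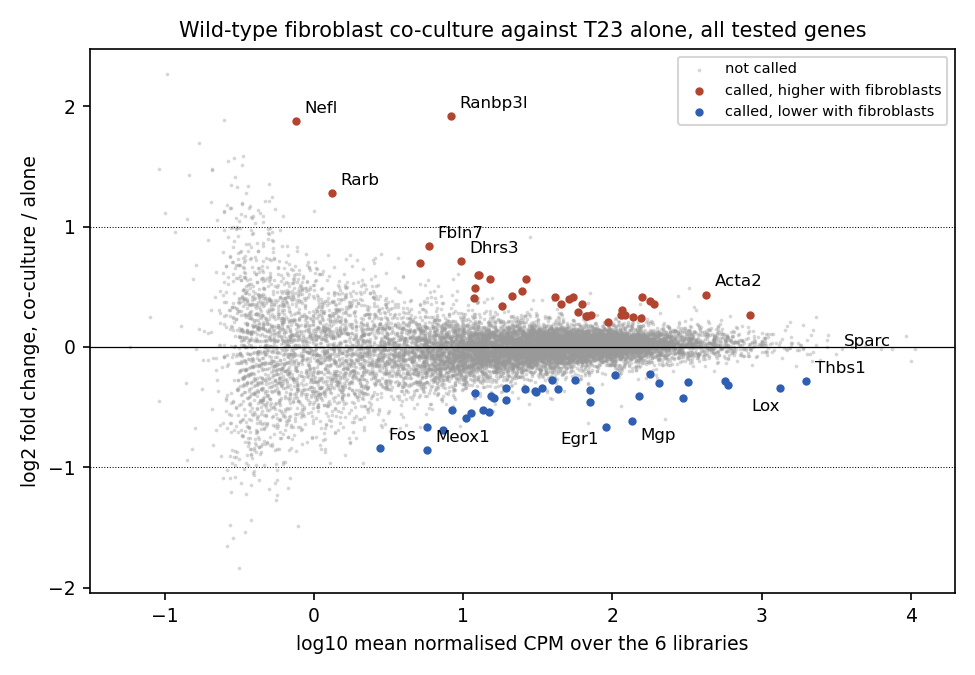
Log2 fold change of co-culture over T23 alone (y axis) against log10 mean normalised CPM of the 6 libraries (x axis) for the 13600 tested genes, 1 point a gene. Red and blue points are the 35 higher and 35 lower called genes, dotted lines mark 2-fold, and beyond 10 CPM (1 on the x axis) no gene passes them.

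All 70 called genes are protein-coding, and in all 70 the 3 co-culture libraries did not overlap the 3 alone libraries. Groups did not overlap in 20.5% of all tested genes, 10.6% with co-culture higher and 9.85% with it lower, and an unadjusted p under 0.05 was reached by 10.4%. Calls and overlaps rest on the same values, so nothing further is read from the 70 of 70. The median log2 distance of the 35 higher genes from the alone mean was 0.374, 0.462 and 0.339 in co-culture replicates 1, 2 and 3, and that of the 35 lower genes was -0.414, -0.445 and -0.341. The smallest distances were thus those of replicate 3. When each of the 6 libraries was left out in turn, only Cd300lb, Chac1, Dhrs3, Egr1, Epn2, Fbln7, Hs6st1 and Mgp kept their call in all 6 fits, and 17 kept it in none. The number of calls fell to 14, 56 and 11 without alone replicates 1, 2 and 3, and to 11, 14 and 39 without co-culture replicates 1, 2 and 3. It rose to 157 without enzalutamide replicate 2, a library outside the comparison with 26.4% of its counts on a ribosomal RNA gene, to 336 when only the 6 libraries were fitted, to 165 with no filter on low counts and to 153 with DESeq2.

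**Figure D2:**
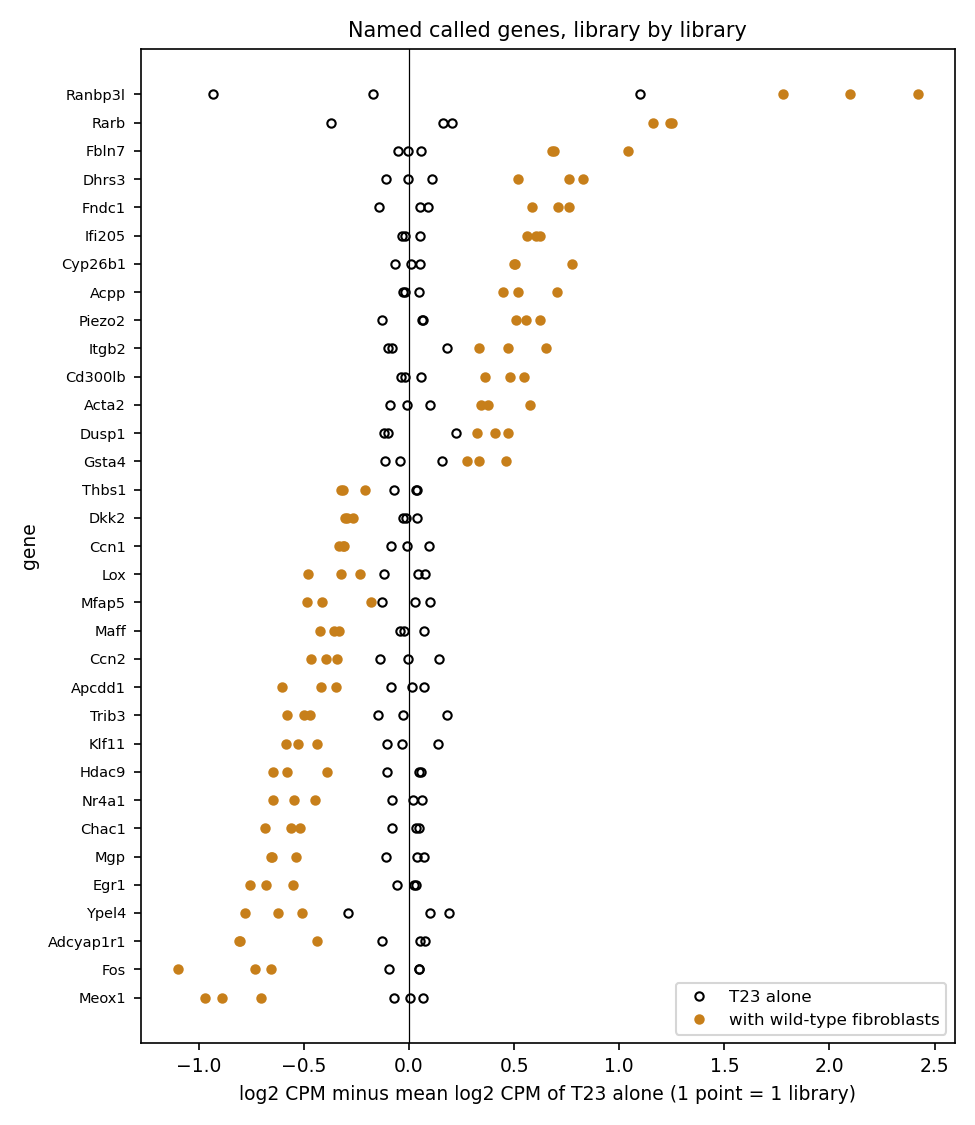
Log2 CPM of each library minus the mean log2 CPM of T23 alone (x axis) for the 33 called genes described by name with full values (y axis). Open points are the 3 alone libraries and filled points the 3 co-culture libraries, and the 2 kinds do not overlap in any row; Ranbp3l has the widest spread among the alone libraries.

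Over all tested genes 0.515% were called. Immediate early genes had 5 called members, as had the TGF-beta and matrix glycoprotein lists described next. Of 31 tested, 4 were lower (Egr1, Fos, Nr4a1 and Maff) and 1 was higher (Dusp1), 28 had a negative log2 fold change, and their median was -0.156, beside 6789 negative of 13600 and a median of 0.000195 over all tested genes. Egr1, a zinc finger transcription factor (ENSMUSG00000038418, chromosome 18, 34859823 to 34864984), stood at 114.2, 107.1 and 113.4 normalised CPM alone and at 76.0, 69.5 and 65.9 in co-culture. All 3 co-culture values lay under every alone value, and the log2 fold change was -0.66 ± 0.08 (SE; adjusted p = 0.000276). Fos, a subunit of AP-1 (ENSMUSG00000021250, chromosome 12, 85473890 to 85477273), had 3.69, 3.35 and 3.70 CPM alone and 2.24, 2.12 and 1.62 in co-culture. It was 1.79-fold lower (log2 -0.84 ± 0.18, adjusted p = 0.0259), and its call was lost in 5 of the 6 fits that left out a library of the comparison, whereas Egr1 kept its call in all 6.

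Nr4a1, an orphan nuclear receptor, fell from 14.1, 12.8 and 13.7 CPM to 9.21, 9.89 and 8.59 (log2 -0.55 ± 0.10, adjusted p = 0.00847). Maff, a small Maf partner of bZIP factors, fell from 34.2, 33.7 and 36.5 CPM to 25.9, 27.2 and 27.6 (log2 -0.37 ± 0.07, adjusted p = 0.0182). Dusp1, which encodes a phosphatase of MAP kinases, went the other way, from 40.5, 51.5 and 41.1 CPM to 58.6, 61.1 and 55.3 (log2 0.40 ± 0.08, adjusted p = 0.0145). Among members that did not pass, Ier2 had a log2 fold change of -0.48 (adjusted p = 0.0514) and Junb one of -0.31 (adjusted p = 0.263), whereas Jun (-0.04) and Myc (-0.03) were close to 0. The list had 10 lower members when only the 6 libraries were fitted and 8 with DESeq2, and 1 without alone replicate 1, alone replicate 3 or co-culture replicate 1.

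Genes of the TGF-beta response also moved mostly downward where they were called. Of 29 tested response genes, 4 were lower and 1 was higher, beside 0.257% of all tested genes in each direction. The median log2 fold change of the 29 was -0.0697. Ccn1 and Ccn2, the matricellular pair, were also the only 2 of 23 tested YAP and TEAD targets to be called. Ccn1 fell from 654.7, 620.6 and 704.4 CPM to 532.8, 522.6 and 530.7 (log2 -0.32 ± 0.07, adjusted p = 0.0236). Ccn2 fell from 171, 156 and 190 CPM to 130, 124 and 135 (log2 -0.40 ± 0.08, adjusted p = 0.0143). In both genes the co-culture libraries lay closer together than the alone libraries.

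Lox, the lysyl oxidase that cross-links collagen and elastin, fell from 1532, 1372 and 1569 CPM to 1191, 1067 and 1268 (log2 -0.34 ± 0.07, adjusted p = 0.0313). Thbs1, a thrombospondin that can activate latent TGF-beta, fell from 2243, 2081 and 2234 CPM to 1889, 1756 and 1745 (log2 -0.28 ± 0.06, adjusted p = 0.0313). Acta2, smooth muscle actin and a marker of myofibroblasts, was the member that rose, from 338.9, 385.9 and 357.5 CPM to 467.5, 536.6 and 457.6 (log2 0.43 ± 0.09, adjusted p = 0.0188). Other members stayed short of the threshold, among them Tagln (log2 0.41, adjusted p = 0.606). Of the 5 called members, none kept its call without alone replicate 1 or 3 or without co-culture replicate 1 or 2. Acta2 was also the 1 called member of 20 tested actin and SRF target genes, beside 0.257% of all tested genes called higher. The median of these 20 was 0.121, and 2 were negative. Tpm1, a tropomyosin gene, had a log2 fold change of 0.21 and Myh9, a non-muscle myosin gene, one of 0.18, and neither passed. Collagen genes showed no call among 22 tested, with log2 fold changes from -0.49 to 0.52 and Col1a1 at -0.02.

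The upstream sequence of Ccn1 is shown because this gene is in both lists and its promoter holds a match to the TEAD motif GGAATG (searched on both strands). The 120 bases before the RefSeq start of the gene on GRCm38.p6, minus strand, chr3:145649986-145650105, read as follows, with the match in capitals as its reverse complement, 103 to 98 bases before the start.
Ccn1: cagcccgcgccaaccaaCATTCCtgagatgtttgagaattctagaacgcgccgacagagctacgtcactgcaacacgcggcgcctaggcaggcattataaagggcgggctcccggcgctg
RefSeq promoters of 250 upstream bases were found for 55 of the 70 called genes. These genes have 67 promoters, of which 11 held GGAATG, beside 12.6% of all 32851 promoters. The AP-1 motif (TGACTCA or TGAGTCA) stood in 1 of the 67, that of Ypel4, beside 4.46%, and the CArG motif of SRF in 1, that of Hopx, beside 1.47%. A match is a description of these letters, and none of these shares was tested.

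Among 30 tested matrix glycoproteins, 3 were lower and 2 were higher, beside 0.257% of all tested genes in each direction. Mgp, which encodes an inhibitor of calcification that binds BMP ligands (ENSMUSG00000030218, chromosome 6, 136872435 to 136875823), stood at 168.9, 152.7 and 172.6 CPM alone and at 113.2, 104.5 and 104.8 in co-culture. It was 1.53-fold lower (log2 -0.62 ± 0.10, adjusted p = 0.0042) and kept its call in all 13 alternative fits. Mfap5, a glycoprotein of elastic microfibrils, fell from 85.1, 72.7 and 80.9 CPM to 59.6, 56.6 and 70.1 (log2 -0.36 ± 0.08, adjusted p = 0.0284), with co-culture replicate 3 just under the lowest alone library. Fbln7, a fibulin that binds cells and matrix, rose from 4.42, 4.10 and 4.24 CPM to 6.92, 8.83 and 6.87 (log2 0.84 ± 0.12, adjusted p = 0.00305), and it too kept its call in all 13 fits. Fndc1, a fibronectin type III domain protein, rose from 3.52, 4.15 and 4.04 CPM to 5.88, 6.67 and 6.42 (log2 0.70 ± 0.15, adjusted p = 0.0339). Fndc1 lost its call whenever any of the 6 libraries was left out (adjusted p up to 0.258), and Mfap5 lost it in 4 of these 6 fits. The list then had 1 higher and 1 lower member without alone replicate 1 or 3 or co-culture replicate 1 or 2. The matrix genes therefore moved in both directions, and Fn1, with 8950 CPM alone and 9548 in co-culture on average, was not called (log2 0.09, adjusted p = 0.613).

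Retinoid genes gave 3 called members of 16 tested, all higher, beside 0.257% of all tested genes called higher. Rarb, the inducible retinoic acid receptor beta, rose from 0.859, 0.566 and 0.888 CPM to 1.93, 1.81 and 1.92 (log2 1.28 ± 0.28, adjusted p = 0.0339). Dhrs3, which returns retinal to retinol (ENSMUSG00000066026, chromosome 4, 144892827 to 144928209), rose from 7.90, 6.79 and 7.30 CPM to 10.5, 12.4 and 13.0 (log2 0.71 ± 0.11, adjusted p = 0.00305). Cyp26b1, which degrades retinoic acid, rose from 10.1, 9.57 and 10.4 CPM to 17.2, 14.2 and 14.2 (log2 0.60 ± 0.10, adjusted p = 0.00588).

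All 3 encode parts of the pathway that are known to be induced by retinoic acid in many cells, and the other 13 tested members, among them Rara (log2 -0.14), Rarg (0.10), Rdh10 (0.03) and Crabp1 (-0.08), were not called. The median of the list, 0.00701, was close to that of all genes. Of the 16, 8 were negative, the lowest at -0.35. All co-culture libraries lay higher in 3 members and lower in 3, beside 10.6% and 9.85% of all tested genes. Dhrs3 kept its call in all 13 fits and Cyp26b1 in 12 of 13, whereas Rarb, at under 2 CPM, lost it whenever a library of the comparison was left out and also with a replicate block. With DESeq2 Rarb was given no adjusted p, and 2 retinoid genes were called higher. Rarb overlaps Top2b on the other strand (log2 0.03), and whether counting used the strand is not given in the sources used here.

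A further 100 bases are shown because Rarb had the largest change of the retinoid genes and its promoter is the textbook case of a retinoic acid response element, 2 copies of the half-site spaced by 5 bases (DR5). They precede a RefSeq start that lies inside the annotated gene, on GRCm38.p6, minus strand, chr14:16575477-16575576, and the capitals mark the DR5 match, 53 to 37 bases before that start.
Rarb: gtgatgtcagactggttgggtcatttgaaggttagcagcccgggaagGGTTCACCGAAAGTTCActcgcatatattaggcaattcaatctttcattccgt
The DR5 motif was added after the values were seen, and 29 of the 32851 promoters (0.0883%) hold it. Of the 67 promoters of called genes it was found in that of Rarb only. The windows of 250 bases searched for Dhrs3 (3 windows) and Cyp26b1 (1 window) did not hold these letters.

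The BMP list held the largest of the called changes. Ranbp3l, a nuclear export factor for BMP Smads (ENSMUSG00000048424, chromosome 15, 8967949 to 9067335), stood at 2.58, 6.36 and 1.48 CPM alone and at 12.8, 16.0 and 10.3 in co-culture. Even the highest alone library, replicate 2, lay below the lowest co-culture library, and the log2 fold change was 1.92 ± 0.37 (95% interval 1.15 to 2.68, adjusted p = 0.0155). Its estimate ran from 1.57 to 2.67 over the alternative fits, and its call was lost in 4 of 13, without alone replicate 1 or 3 or co-culture replicate 1 or 2 (adjusted p up to 0.156). Of 19 tested BMP targets and antagonists, Ranbp3l was called higher and Mgp lower, beside 0.257% of all tested genes in each direction. Among these 19, 14 were negative and the median was -0.203. Id1 (log2 -0.41, adjusted p = 0.134) and Id3 (-0.43, adjusted p = 0.0748), the usual direct targets of BMP Smads, did not pass.

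Apcdd1, a membrane inhibitor of Wnt signalling, fell from 85.6, 76.8 and 82.1 CPM to 60.9, 53.6 and 63.9 (log2 -0.46 ± 0.09, adjusted p = 0.0145). Dkk2, a secreted Wnt modulator, fell from 364, 350 and 348 CPM to 287, 289 and 295 (log2 -0.29 ± 0.06, adjusted p = 0.0313). Both were called among 13 tested Wnt feedback genes, beside 0.257% of all tested genes called lower. The median of the 13 was -0.0546. Dkk2 lost its call whenever any of the 6 libraries was left out, and Apcdd1 lost it in 4 of these 6 fits. Axin2, the standard target of beta-catenin, had a log2 fold change of -0.48 that did not pass (adjusted p = 0.0695).

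In the list of unfolded protein and heat shock genes, 2 of 21 were lower, beside 0.257% of all tested genes. Both are targets of ATF4. Chac1, which degrades glutathione, fell from 13.1, 13.0 and 11.9 CPM to 8.54, 8.79 and 7.83 (log2 -0.59 ± 0.10, adjusted p = 0.0042). Trib3, a pseudokinase, fell from 14.5, 18.2 and 15.7 CPM to 11.6, 11.3 and 10.7 (log2 -0.52 ± 0.11, adjusted p = 0.0227). Atf4 itself (log2 0.02), Asns (-0.05) and the chaperone gene Hspa5 (0.14, adjusted p = 0.276) did not pass the test.

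Some called genes stood in no list or alone in theirs. Meox1, a homeobox factor of mesoderm, fell from 7.43, 7.78 and 7.05 CPM to 3.96, 4.51 and 3.74 (log2 -0.86 ± 0.15, adjusted p = 0.00847), the largest fall among the called genes. Adcyap1r1, the receptor of the neuropeptide PACAP, fell from 9.41, 8.29 and 9.57 CPM to 5.15, 5.14 and 6.67 (log2 -0.69). Ypel4 fell from 7.95, 5.66 and 7.45 CPM to 4.48, 4.00 and 4.85 (log2 -0.67). In both genes all co-culture libraries lay below all alone libraries. The histone deacetylase gene Hdac9 fell from 18.3, 16.4 and 18.4 CPM to 11.8, 11.3 and 13.5 (log2 -0.54), and the Krüppel-like factor gene Klf11 from 9.71, 9.24 and 10.9 CPM to 6.87, 6.59 and 7.33 (log2 -0.53). Adjusted p of these 4 ran from 0.0257 to 0.0339. Among the higher genes, the prostatic acid phosphatase gene Acpp rose from 20.8, 21.9 and 20.9 CPM to 30.4, 34.6 and 29.0 (log2 0.57 ± 0.11, adjusted p = 0.0173). The mechanosensitive channel gene Piezo2 rose from 12.8, 12.8 and 11.2 CPM to 18.1, 18.9 and 17.5 (log2 0.56, adjusted p = 0.00847). The interferon-inducible Ifi205 rose from 9.96, 10.5 and 9.87 CPM to 15.4, 15.6 and 15.0 (log2 0.60, adjusted p = 0.00847). In each of these 3 genes the co-culture libraries lay well above the alone libraries. Gsta4, a glutathione transferase gene, rose from 38.6, 44.4 and 36.8 CPM to 48.2, 54.8 and 50.1 (log2 0.36, adjusted p = 0.0313). It was the 1 called member of 24 NRF2 targets, and Ifi205 the 1 of 36 interferon-stimulated genes, beside 0.257% of all tested genes called higher. Ifi205 has close paralogs, so its counts are uncertain.

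Other called genes were smaller in effect. Higher ones included Angptl7 (log2 0.42), the heparan sulphate sulphotransferase gene Hs6st1 (0.41), Hspa4l (0.38), the plakoglobin gene Jup (0.25) and the p38 kinase gene Mapk14 (0.21). Lower ones included the nephronectin gene Npnt (-0.44), Txnip (-0.42), the chloride channel gene Ano1 (-0.37), the collagen prolyl hydroxylase gene P4ha3 (-0.35) and the cholesterol transporter gene Npc2 (-0.22). Cd300lb rose from 20.4, 21.8 and 20.6 CPM to 29.2, 26.9 and 30.6 (log2 0.46, adjusted p = 0.0042), and Itgb2 from 9.28, 9.43 and 11.3 CPM to 15.7, 12.6 and 13.8 (log2 0.49, adjusted p = 0.0412). Both are best known from myeloid cells. Itgb2 lost its call whenever any of the 6 libraries was left out (adjusted p up to 0.284), whereas Cd300lb kept its call in all 6 of these fits. The listed immune markers summed to 5.57 to 7.43 CPM alone and 4.89 to 6.06 in co-culture, with 8 of 17 at 0 counts in all 6 libraries, Adgre1, C1qa and Tyrobp among them. The neurofilament gene Nefl (log2 1.88), at under 1.5 CPM in each of the 6 libraries, was the second largest called rise.

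**Figure D3:**
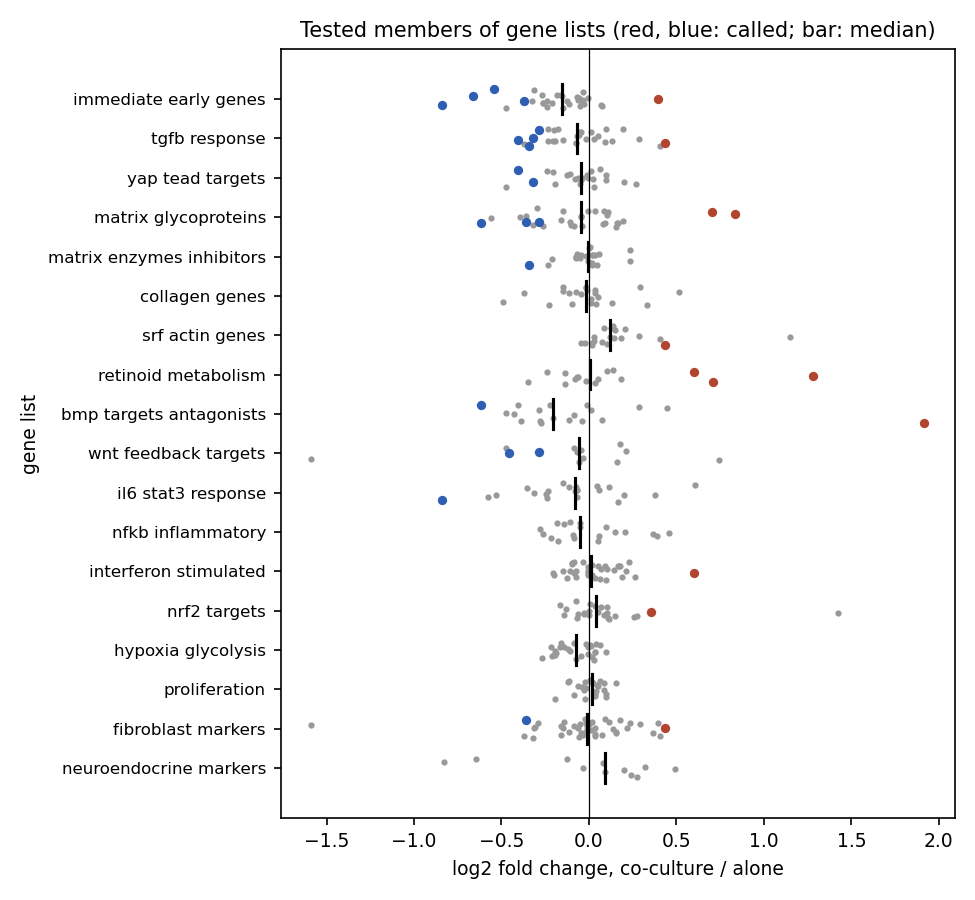
Log2 fold change of co-culture over T23 alone (x axis) of the tested members of 18 gene lists (y axis), 1 point a gene, with vertical jitter only. Red and blue points are called higher and lower, and bars are list medians. The immediate early genes lie mostly left of 0. Hypoxia, collagen, NF-kB and proliferation genes have no called point.

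Several programmes gave no call. They were 25 proliferation genes (log2 fold changes between -0.19 and 0.16), 27 hypoxia and glycolysis genes (-0.27 to 0.10), 20 sterol synthesis genes (-0.21 to 0.19), 12 p53 targets (-0.19 to 0.08), 12 androgen receptor targets (-0.21 to 0.19), 17 listed integrins (-0.40 to 0.15) and 19 NF-kB genes (-0.28 to 0.46). Itgb2, an integrin gene called above, was not in the integrin list. Of 28 neuroendocrine markers, 11 could be tested and none was called. Chga, Insm1 and Neurod1 had 0 counts in all 6 libraries. Sparc, at 3205, 3190 and 3189 CPM alone and 3047, 3090 and 3065 in co-culture, was lower in all 3 co-culture libraries but did not pass (log2 -0.06, 95% interval -0.15 to 0.04, adjusted p = 0.722). The smallest called change was 1.16-fold, and a gene without a call may still differ.

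No transcript that was under 0.5 CPM throughout T23 alone was found at 1 CPM or more in all 3 co-culture libraries. Nefl, at 0.344, 0.189 and 0.444 CPM alone, passed 1 CPM in co-culture replicates 1 and 2 (1.30 and 1.34) but not in replicate 3 (0.960). Of 42228 genes under 0.5 CPM in all 3 alone libraries, 0 reached 1 CPM in all 3 co-culture libraries, and the reverse search gave 0 of 42155. At a minimum of 1 count per library, 67 genes were found in all 3 co-culture libraries and in none of the alone libraries, against 72 genes the other way round. At 3 counts the numbers were 0 and 2, and at 10 counts 0 and 0. Ppp1r32 had the highest sum of the 67 genes, with 1, 1 and 8 counts, followed by Gm16701 (2, 5 and 2), Gm37140 (5, 1 and 3) and Gm45148 (2, 6 and 1). Genes seen only in T23 alone were led by 9330159F19Rik (3, 4 and 4 counts), M6pr-ps (3, 5 and 3) and Gm33424 (1, 5 and 3). The co-culture side thus held no more such transcripts than the alone side at any of the 3 minimums.

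T23 cells alone already express most fibroblast markers, which limits how far such markers can show fibroblast RNA. Of 50 listed markers only 13 were under 1 CPM in T23 alone, and Epcam, the epithelial marker, had 1 count in each alone library, with 14 of 19 luminal markers under 1 CPM there. The summed level of the 50 markers was 50840 to 52360 CPM alone and 49900 to 52130 in co-culture. Of 44 tested, Acta2 was higher and Mfap5 lower, beside 0.257% of all tested genes in each direction. The median log2 fold change of the 44 was -0.0126. Of the 13 low markers, Tcf21 had 0 counts in all 6 libraries. Lum had 3 counts in 1 alone library and 1 count in 1 co-culture library, and Wnt2 had 1 count in 1 library of each group. Pi16 went from 0, 1 and 0 counts to 2, 3 and 2, and Clec3b from 7, 4 and 0 to 3, 12 and 11. Sfrp2 went the other way, from 10, 13 and 5 counts to 2, 3 and 4, and C7 from 5, 10 and 5 to 2, 4 and 1. Entpd2, Col14a1, Col15a1, Abca8a, Sfrp4 and Hoxd13, all at 0.306 to 1.01 CPM on average in co-culture, overlapped between the groups or, for Sfrp4, lay lower in co-culture. Pi16 alone lay higher in all 3 co-culture libraries than in all 3 alone libraries, at 0.108 CPM on average, which is under the level that a count of 0 allows.

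**Figure D4:**
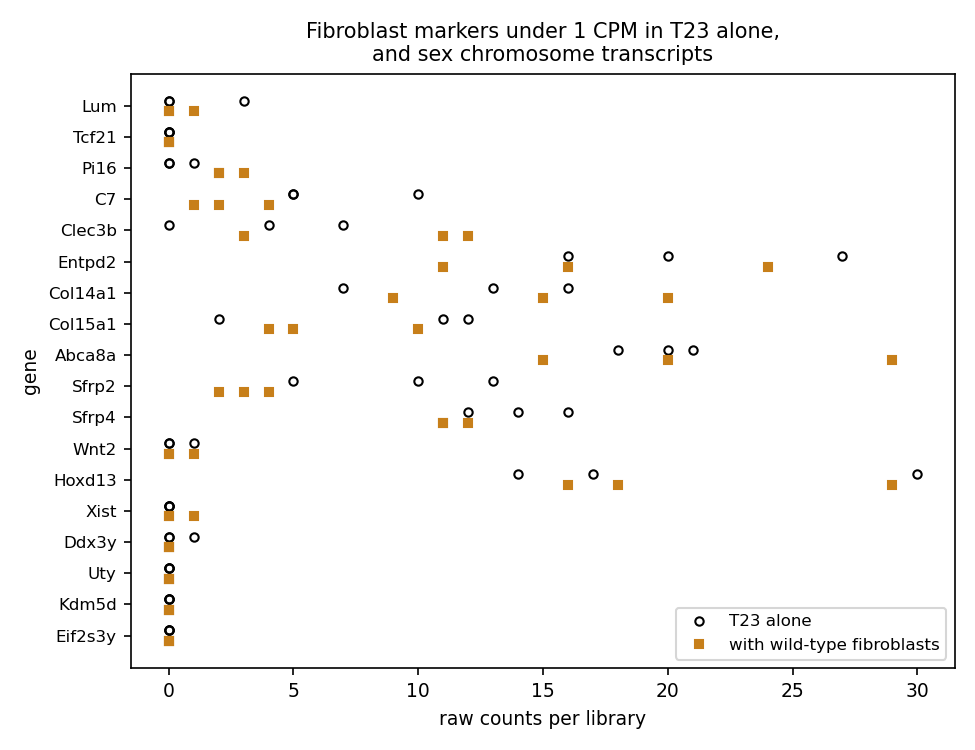
Raw counts per library (x axis) of the 13 fibroblast markers under 1 CPM in T23 alone and of 5 sex chromosome transcripts (y axis). Open circles are the 3 alone libraries and filled squares the 3 co-culture libraries, with equal counts drawn on top of each other; no marker leaves the range of 0 to 30 counts.

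The Y-linked genes Uty, Kdm5d and Eif2s3y had 0 counts in all 6 libraries, Ddx3y had 1 count in alone replicate 3, and Xist had 1 count in co-culture replicate 2. The sex of the T23 line and of the fibroblasts is not in the labels. Smooth muscle and pericyte markers, which include Acta2, summed to 513.7 to 561.6 CPM alone and 630.9 to 705.5 in co-culture. Acta2 was the 1 called of 8 tested, beside 0.515% of all tested genes. The defining markers Myocd and Myh11 had 0 and at most 1 count per library. Schwann and neural markers summed to at most 26.0 CPM alone and 27.4 to 32.5 in co-culture, which stands beside the rise of Nefl. Sox10 was at 0, and 0 of 4 tested were called. The log2 fold changes of these 4 ran from -0.26 to 2.27, with a median of 0.469. In 3 of them all co-culture libraries lay higher and in 1 all lay lower, beside 10.6% and 9.85% of all tested genes. The part of either cell type in the results was not tested. In bulk libraries, more cells of a type and more RNA per cell cannot be told apart.

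The response was then read in 6 libraries that share none with the comparison, T23 cells with fibroblasts and enzalutamide against T23 cells with enzalutamide. Descriptions of that co-culture name human fibroblasts, whereas its titles carry the same fibroblast code, so the identity of the fibroblasts there is uncertain. Of the 70 called genes, 67 had the same sign (35 of 35 higher and 32 of 35 lower), against 60.7% of all tested genes, and 34 were also called there in the same direction, beside 283 of 13600 (2.08%; 1.14% higher and 0.941% lower). Both comparisons use the same estimate of spread per gene, taken from all 18 libraries, so their calls are not independent of each other. The 283 calls fell to 11 with the numbering series of the titles as a term and to 56 with only the groups compared, and 2 of the 3 enzalutamide co-culture libraries belong to another numbering series than the enzalutamide libraries. Enzalutamide replicate 2 is the library rich in ribosomal RNA, and 67 of 70 signs were also the same without it. None was called in the opposite direction. The 3 exceptions in sign were Chac1 (log2 0.19), Hopx (0.13) and Ccn1 (0.006). The median log2 fold change with enzalutamide was 0.318 for the 35 higher genes and -0.269 for the 35 lower genes, compared with 0.411 and -0.378 without it.

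Some retinoid and matrix genes were called again with enzalutamide and others were not. Cyp26b1 went from 11.8, 13.1 and 11.7 CPM with enzalutamide to 19.9, 22.6 and 19.6 with fibroblasts added (log2 0.77, adjusted p = 0.000241). Ranbp3l went from 1.65, 2.08 and 2.13 CPM to 17.2, 19.7 and 10.9 (log2 3.04, adjusted p = 0.000269), and Fndc1 had a log2 fold change of 1.38. Rarb (log2 0.63, adjusted p = 0.222), Thbs1 (-0.10, adjusted p = 0.524) and Mfap5 (-0.03, adjusted p = 0.922) did not pass there. Mgp fell from 205.0, 172.6 and 226.8 CPM to 128.7, 127.4 and 144.3 (log2 -0.60, adjusted p = 0.00142). Egr1, in contrast, had a log2 fold change of only -0.14 (adjusted p = 0.463) and Fos one of -0.31 (adjusted p = 0.538). The interaction test called neither Egr1 (adjusted p = 0.161) nor Fos (adjusted p = 0.921), so their difference between the 2 settings is not shown.

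**Figure D5:**
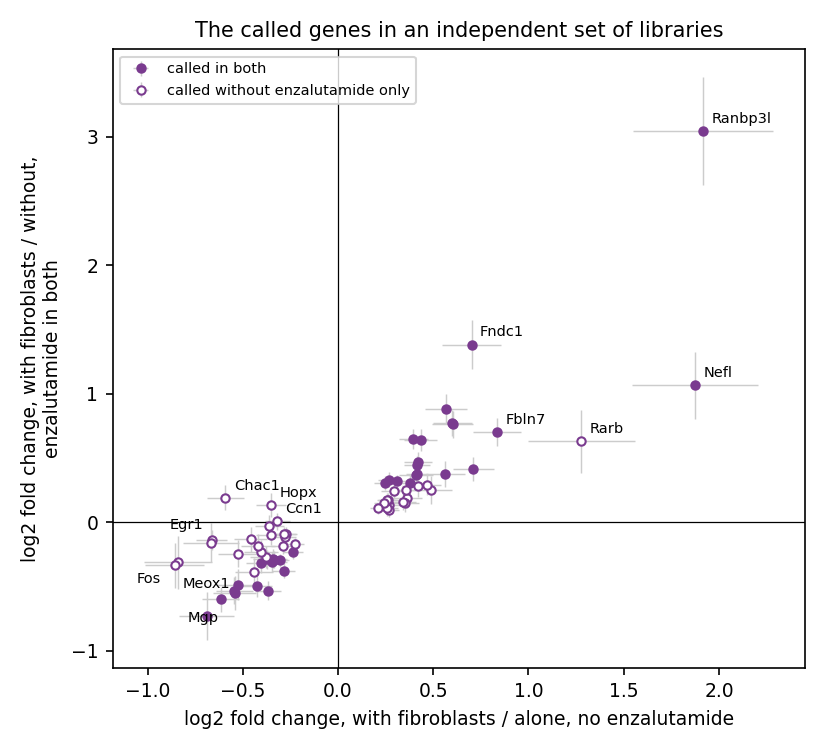
Log2 fold change with fibroblasts for the 70 called genes, without enzalutamide (x axis) and with it (y axis), from 2 sets of 6 libraries with none in common; bars are standard errors of the fit. Filled points are the 34 genes called in both, where both calls use a spread per gene estimated over all 18 libraries. Only Chac1, Hopx and Ccn1 lie in a quadrant of opposite sign.

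The same 70 genes were finally compared with the co-culture that held Sparc-deficient fibroblasts, which shares the wild-type co-culture libraries or the alone libraries with the main comparison. Between Sparc-deficient and wild-type co-culture, 30 of the 70 were called, beside 11.5% of all tested genes, 25 of them against the wild-type effect and 5 with it; since the wild-type libraries enter both fold changes, nothing is read from that count. Over T23 alone, Sparc-deficient co-culture had 33 of the 70 called in the same direction and 7 in the opposite one, beside 9.74% of all tested genes. The alone libraries are shared there, so only values per gene are given, side by side. Egr1 stood at 148.6, 183.3 and 143.3 CPM with Sparc-deficient fibroblasts, above both T23 alone and wild-type co-culture, a log2 fold change over T23 alone of 0.51 (adjusted p = 0.000103). Fos stood at 7.06, 7.97 and 6.57 CPM there (log2 1.01 over alone) and Ccn1 at 968.3, 1022 and 930.4 (log2 0.56). These genes were thus lower with wild-type fibroblasts and higher than T23 alone with Sparc-deficient ones. Mfap5 (log2 0.50 over alone), Ccn2 (0.35) and Lox (0.25), also lower with wild-type fibroblasts, were likewise called higher than T23 alone there.

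Other genes had the same direction over T23 alone with both fibroblasts. Mgp was at 75.6, 91.0 and 62.5 CPM with Sparc-deficient fibroblasts (log2 -1.11 over alone), lower than with wild-type ones (log2 -0.49 between them, adjusted p = 0.0019). Dhrs3 was at 17.7, 19.7 and 17.1 CPM (log2 1.31 over alone) and Dusp1 at 113.2, 99.6 and 104.2 (adjusted p 1.12e-10 over alone), both above the wild-type co-culture. Ranbp3l (log2 2.29 over alone), Fbln7 (0.89), Fndc1 (0.73) and Meox1 (-0.74) had values near those with wild-type fibroblasts, and none of these 4 was called between the co-cultures (adjusted p 0.484 to 0.944). Afap1l2, an adaptor protein gene, was higher than T23 alone with wild-type fibroblasts (log2 0.42) and lower with Sparc-deficient ones (log2 -0.26). That pattern is opposite to that of Egr1, and the gene was named after its values were seen. Its call with wild-type fibroblasts was kept in 2 of the 6 fits that left out a library of the comparison.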

How the data were processed

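The authors deposited raw counts per gene, 1 file per library, under Ensembl identifiers. Per the submitters' processing notes, reads were trimmed with cutadapt 2.9 and aligned with STAR 2.6.1d, and the build was GRCm38. The same notes list featureCounts 2.0 and, with no version, DESeq2. Per the labels' protocols, libraries were stranded and made from polyadenylated RNA. The annotation, the use of strand and the handling of multiply mapped reads are not given in the sources used here, so counts of overlapping or paralogous genes are uncertain. GENCODE M21 supplied symbols and coordinates for 55227 of 55487 identifiers, and the other 260 held 0.005523% of counts.

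Counts were filtered with filterByExpr (minimum count 10), given TMM factors and modelled with edgeR 4.0.16 under R 4.3.3. Each of the 6 groups had its own mean, which left 12 residual degrees of freedom for the 18 libraries (common biological variation 7.03%). Tests are two-sided quasi-likelihood F tests with Benjamini-Hochberg adjustment over the 13600 genes, and a gene is called at an adjusted p under 0.05. SE was obtained by dividing the size of a log2 fold change by the root of its F. Normalised CPM are counts over TMM library sizes.

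The fit was tested on simulated counts with known changes in the co-culture libraries. It called 40.8% of genes simulated at 1.25-fold, 67.3% at 1.5-fold, 91.8% at 2-fold and 94% at 3-fold. Each of these rates rests on 49 or 50 genes. Counts were drawn from the spread that the fit had estimated, with no shift of whole libraries, so rates in the real libraries may differ. Of 13232 genes simulated without a change it called 5. Reads carry no molecular identifiers, so depth limits cover counting error only. Replicate numbers did not pair libraries (same-number correlations of alone and co-culture -0.0916, 0.15 and -0.047).

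The comparison, gene lists and naming rule were chosen with earlier results of these data known. Named with full values are the 12 called genes of largest positive and 12 of largest negative log2 fold change at a mean of at least 1 CPM, every called list member, and Sparc. Other called genes, and uncalled list members, were named after their values were seen. Lists come from textbook knowledge and share members. Alternatives were DESeq2 1.42.0, RLE scaling, no filter, a replicate block, the numbering series of the titles as a term, only the groups compared, and each library left out. Promoter sequences are those of RefSeq on GRCm38.p6.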

Additional observations from a re-analysis of the deposited data

Results flagged for a closer look

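3 results differed between the untreated and the enzalutamide setting by the test of the difference itself. Descriptions of the enzalutamide co-culture also name human fibroblasts, and part of its libraries belong to another numbering series. Drug, fibroblasts and series therefore cannot be told apart in this test. The interaction term of the edgeR quasi-likelihood model called 3 of 13600 genes (0.0221%), each at an adjusted p of 0.0496, with 755 genes at an unadjusted p under 0.05. Chac1 fell with fibroblasts without enzalutamide (log2 -0.59) and stood at 11.2, 9.15 and 10.5 CPM with enzalutamide against 12.5, 11.2 and 11.9 with fibroblasts added (log2 0.19), a difference of 0.78. Abca1, a cholesterol efflux transporter gene, stood at 80.2, 70.0 and 76.0 CPM alone and 79.5, 68.7 and 75.5 with fibroblasts. With enzalutamide it stood at 249.1, 255.5 and 216.3 CPM, and at 166.8, 152.8 and 161.7 with fibroblasts added, a difference in log2 fold change of -0.563. Oas2, an interferon-stimulated gene, had log2 fold changes of -0.11 without and 0.74 with enzalutamide, a difference of 0.853. With RLE scaling or the replicate block, with the numbering series as a term, or without enzalutamide replicate 2, no gene passed.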

How the results depend on the processing

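For wild-type co-culture against T23 alone, the 70 calls became 153 with DESeq2 (68 of the 70 among them), 165 with no filter on low counts (66 of the 70) and 336 when only the groups compared were fitted (70 of the 70). Leaving out 1 library gave 11 to 157 calls. With the replicate block 56 were called, 55 of them among the 70, and numbers did not pair the libraries; RLE scaling gave 76 calls and the numbering term 71. The 283 calls of the fibroblast effect with enzalutamide became 425 with DESeq2, 541 with no filter, 11 with the numbering series as a term and 56 with only the groups compared, and ran from 83 to 419 without 1 library. The 3 interaction calls became 0 with RLE scaling, with the replicate block, with the numbering term and with only the groups compared, 99 with no filter, and 0 to 12 without 1 library. Between Sparc-deficient and wild-type co-culture the 1566 calls ran from 857 to 2085 without 1 library. Transcripts found only in co-culture fell from 67 to 0 at a minimum of 3 counts, and those only in T23 alone from 72 to 2. The share of called genes with the same sign under enzalutamide, an alternative added after seeing the data, was 95.7% and ran from 89.3 to 98.6% over the fits; it was 67 of 70 without enzalutamide replicate 2 and 68 of 70 with the 1 enzalutamide co-culture library of the first numbering series. Of the 33 called genes with full values, Fbln7, Dhrs3, Cd300lb, Chac1, Mgp and Egr1 kept their calls in all fits run. The cause of these shifts was not tested. With 3 libraries a side, small changes may go without a call.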
